A study of Mus musculus with 4 samples.

Results

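The interstitial collagens and mesenchymal matrix genes were taken by symbol. They were every annotated collagen chain gene outside the collagen IV family, together with a fixed set of matrix proteins, crosslinking enzymes, metalloproteinase inhibitors, cytoskeletal genes and surface receptors of mesenchymal cells. The rule reads symbols and no measured value, but it was written with earlier results of these data known. Of 16593 genes with an annotated probe on the array, 54 met the rule (31 collagens and 23 others), and 35 of these (16 collagens and 19 others) were detected on at least 2 of the 4 arrays and tested, among 9502 genes tested in all. Whole livers of newborn mice (strain B6;129 mixed, postnatal day 1) were profiled with the MouseRef-8 v2.0 bead array of Illumina. DKO 1 and DKO 2 came from livers of genotype Lats1-/-;Lats2f/fl;Alb-cre, which lack Lats1 throughout the body and delete the floxed Lats2 in cells that express a Cre recombinase driven by the albumin promoter, namely hepatoblasts and their descendants. Mesenchymal cells do not express albumin, so that they lack Lats1 but are not a target of the Lats2 deletion. Control 1 and Control 2 are labelled wild type, and no source used here says whether they carried Alb-cre. The pups were born to the same dams.

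LATS1 and LATS2 are the Hippo pathway kinases that restrain the co-activators YAP and TAZ. In the liver the interstitial matrix is made mainly by hepatic stellate cells, portal fibroblasts and smooth muscle cells. Fibrillar collagens are secreted as procollagens, trimmed, assembled into fibrils and crosslinked by lysyl oxidases. Small proteoglycans set fibril spacing, metalloproteinases degrade the matrix, and the TIMP proteins block those proteases. When stellate cells become myofibroblasts they express smooth muscle actin, fibrillar collagens and TIMP1. The comparison asks how the matrix genes of the liver stood when the neighbouring epithelium had lost the LATS kinases.

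Between 12514 and 13641 of 25697 probes were detected per array (detection p under 0.05, the chance that a negative control bead is as bright), and Pearson's r across tested probes was 0.95 within each group and 0.86 to 0.92 between groups. All 4 samples are labelled female, but Control 2 carried the Y-linked transcript Eif2s3y at 11.31 (normalized log2 intensity, the unit of every level below). It read 4.76, 4.94 and 4.69 on DKO 1, DKO 2 and Control 1. Results are therefore also given without Control 2. Xist read 9.76 and 9.07 in DKO livers, against 9.86 in Control 1 and 5.16 in Control 2, so the control arrays held RNA of different animals. For the DKO arrays no label states separate animals, and the spread between them may be technical. The p-values cover only the spread among these 4 arrays, whose small number limits the precision. The Lats2 probe read 6.54 and 6.07 in DKO livers and 5.92 and 5.47 in control livers (log2 change 0.61, SE 0.37, adjusted p = 0.53), Lats1 had no annotated probe, and it is not known here whether the Lats2 probe lies in the deleted part of the gene, so it does not check the genotypes. The liver markers Ttr, Apoa1 and Ahsg were detected on all 4 arrays.

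One matrix gene passed the test. Timp3, a metalloproteinase inhibitor that stays bound to the matrix, was higher in DKO livers, and no member was lower (limma, Benjamini-Hochberg adjusted p under 0.05 across all tested probes). That is 1 of 35 tested members, or 2.86%, where 1.75% of all tested genes were called higher, 1.68% lower and 3.43% in either direction. At an unadjusted p under 0.05, 7 members were higher (Timp1, Timp3, Loxl1, Loxl2, Sparc, Vim and Thy1) and 2 were lower (Lox and Reln), against 8.05% and 8.03% of all tested genes. The medians of the collagens and of the other members lay on opposite sides of 0. The median log2 change (DKO minus control) was -0.29 over the 16 collagens, of which 12 were negative, and 0.56 over the 19 other members, of which 11 were positive, while over all tested genes it was 0.005 and 50.4% were positive. Without Control 2 these medians were -0.43 and 0.05, without Control 1 -0.23 and 0.39, without DKO 1 -0.39 and 0.36, and without DKO 2 -0.37 and 0.36. Over members detected on all 4 arrays the medians were -0.41 for 13 collagens and 0.02 for 16 others, of which 8 were positive. With no filter on detection they were -0.07 for 31 collagens and 0.14 for 23 others. In whole livers, fewer cells of a type and less RNA per cell cannot be told apart.

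**Figure D1:**
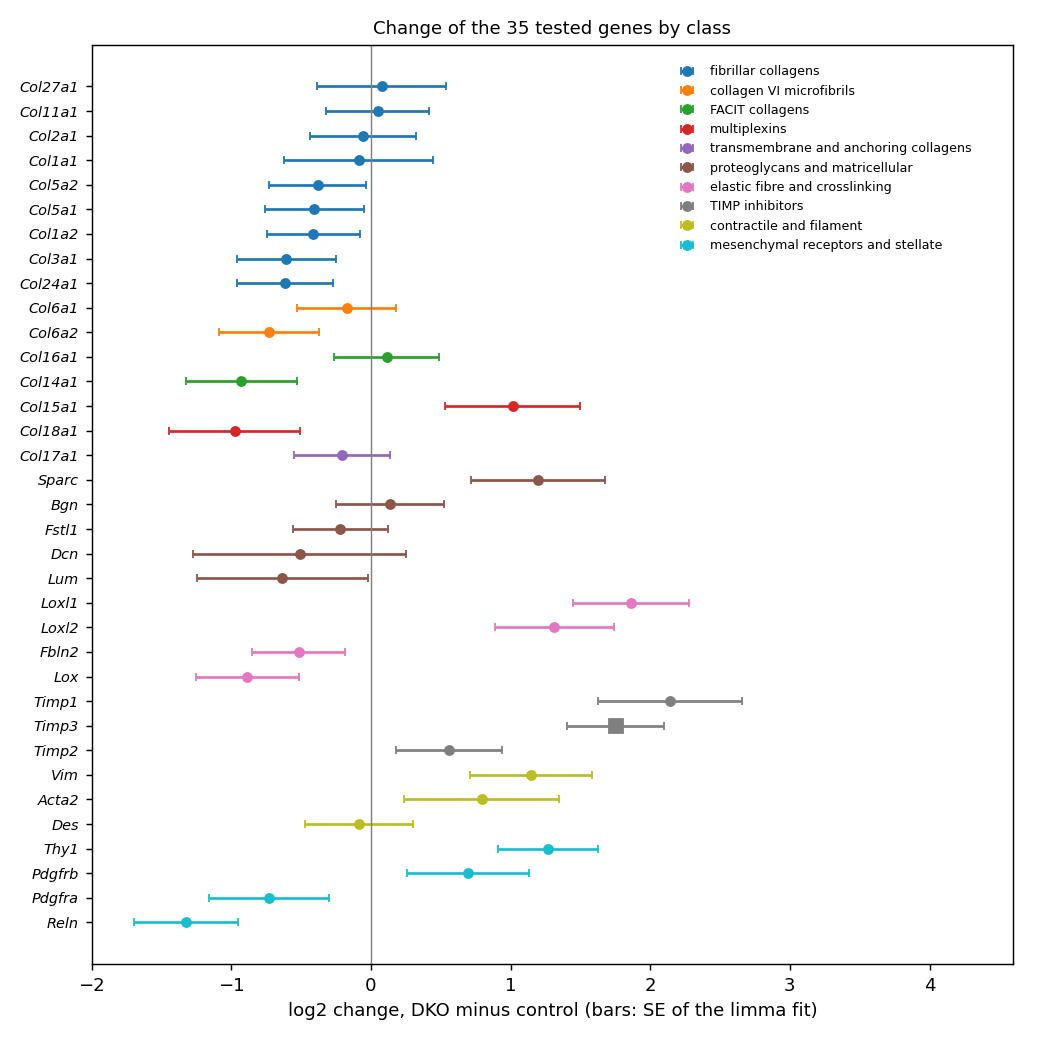
Log2 change (DKO minus control, horizontal axis) of each of the 35 tested members, in rows grouped and coloured by class. Points are the limma estimates and bars their standard errors from 2 arrays per group, and the larger square marks Timp3, the member that passed the adjusted threshold. Most collagens sit left of 0, and the 3 TIMP genes sit right of it.

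The TIMP genes had a median log2 change of 1.75 over 3 tested genes, the highest of any class. Timp3 read 10.77 and 11.12 in DKO livers, against 9.05 and 9.34 in control livers. Both DKO arrays lay above both controls by more than either group's own spread, a 3.37-fold difference (log2 change 1.75, SE 0.35, 95% interval 0.93 to 2.57, adjusted p = 0.045). Its second probe read 7.35 and 7.96 in DKO livers, against 6.30 and 5.26 in control livers, where it was detected on 1 of 2 arrays (log2 change 1.87, SE 0.45, adjusted p = 0.088). The call at the first probe was lost without Control 1 (1.61, adjusted p = 0.22), without Control 2 (1.90, adjusted p = 0.14) and without DKO 2 (1.57, adjusted p = 0.19), and was kept without DKO 1 (1.92, adjusted p = 0.043).

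Timp1, the soluble inhibitor that is a standard marker of liver fibrosis, has 2 probes that fell on either side of the threshold. The probe with the higher mean intensity read 7.92 and 8.92 in DKO livers, against 5.71 and 6.84 in control livers (4.42-fold, log2 change 2.14, SE 0.52, adjusted p = 0.086). The other read 7.91 and 8.82 in DKO livers, against 5.90 and 6.32 in control livers (4.78-fold, log2 change 2.26, SE 0.42, adjusted p = 0.037). The groups did not overlap at either probe, and DKO 2 read above DKO 1 and Control 2 above Control 1 at both. By the rule that a gene is read at its brightest tested probe, Timp1 was not counted as changed. Without Control 2 the first probe's change was 2.72 (adjusted p = 0.085) and the other's 2.47 (adjusted p = 0.10). Without Control 1 they were 1.57 (adjusted p = 0.32) and 2.03 (adjusted p = 0.19). Without DKO 1 both passed, at 2.66 (adjusted p = 0.0087) and 2.74 (adjusted p = 0.0039), and without DKO 2 neither did, at 1.64 (adjusted p = 0.21) and 1.80 (adjusted p = 0.10).

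Timp2, which also takes part in the activation of the gelatinase MMP2, read 8.73 and 9.12 in DKO livers, against 8.05 and 8.67 in control livers. Here the groups were separated by a narrow gap, and the log2 change of 0.56 (SE 0.38, adjusted p = 0.59) was within the spread between arrays. The 95% interval of the Timp2 change ran from -0.33 to 1.45.

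The promoters of the 3 TIMP genes are shown because the inhibitors lay above control on both DKO arrays to different extents. Each run is 300 bases, from 250 before to 50 after the RefSeq start (GRCm38.p6), in the direction of transcription. Capitals mark matches on either strand to GGAATG, the core bound by TEAD factors, the DNA-binding partners of YAP, and to GGGCGG, the core bound by Sp1. TGANTCA, the AP-1 site, was searched too and had 0 matches in these 3 windows.
Timp3 (chr10:86300162-86300461, plus strand): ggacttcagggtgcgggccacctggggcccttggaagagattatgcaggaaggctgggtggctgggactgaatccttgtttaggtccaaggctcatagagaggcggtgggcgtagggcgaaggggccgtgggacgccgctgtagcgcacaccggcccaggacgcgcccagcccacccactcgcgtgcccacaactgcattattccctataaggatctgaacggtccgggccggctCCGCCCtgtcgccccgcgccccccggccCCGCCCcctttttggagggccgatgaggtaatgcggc
Timp1 (chrX:20869916-20870215, plus strand): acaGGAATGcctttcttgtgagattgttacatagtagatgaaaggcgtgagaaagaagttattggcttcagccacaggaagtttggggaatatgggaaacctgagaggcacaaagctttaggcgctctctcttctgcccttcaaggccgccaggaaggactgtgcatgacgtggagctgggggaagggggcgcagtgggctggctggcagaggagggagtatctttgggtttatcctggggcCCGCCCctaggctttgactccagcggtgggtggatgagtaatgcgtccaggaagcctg
Timp2 (chr11:118355362-118355661, minus strand): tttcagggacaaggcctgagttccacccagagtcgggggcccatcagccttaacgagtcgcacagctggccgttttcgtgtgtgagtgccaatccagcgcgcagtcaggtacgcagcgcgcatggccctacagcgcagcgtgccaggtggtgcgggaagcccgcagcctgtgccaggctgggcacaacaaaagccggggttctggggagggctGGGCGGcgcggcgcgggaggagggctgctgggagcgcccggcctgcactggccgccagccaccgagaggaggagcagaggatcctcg

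Timp1 held 1 GGAATG, from -247 to -242 relative to the start, and 1 Sp1 core. Timp3 held 2 Sp1 cores and Timp2 held 1, and neither had a GGAATG in this window. GGAATG was present in 14.7% of all 32851 RefSeq promoters of this length and in 5 of 26 promoters of tested members (19.2%), and the Sp1 core in 35.7% and 61.5%. TGANTCA was present in 7.81% of all promoters and in 1 of the 26. In the printed windows no match to one motif overlaps a match to another, and these are matches of letters, not sites shown to be bound. Of the 35 tested members, 24 matched a promoter in the RefSeq table. By RefSeq annotation Timp3 lies within Syn3, Timp1 within Syn1, and Timp2 overlaps Cep295nl.

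**Figure D2:**
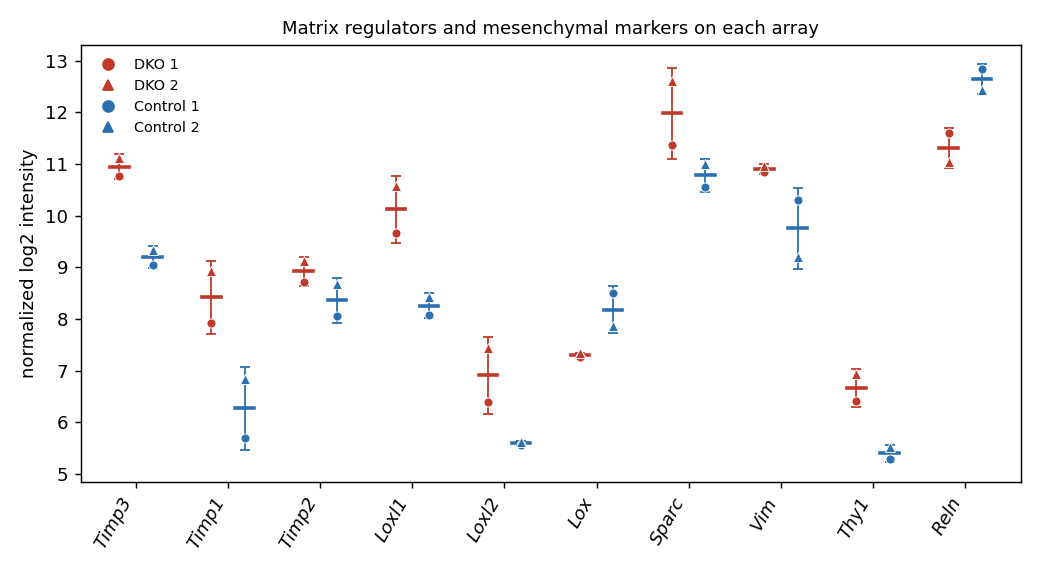
Normalized log2 intensity (vertical axis) of 10 matrix regulators and mesenchymal markers on each array, DKO in red left of control in blue. Circles are replicate 1, triangles replicate 2, horizontal bars the group means and whiskers the SD (n = 2). Lox and Reln lie lower in DKO livers and the other 8 lie higher.

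The lysyl oxidases, which crosslink collagen and elastin, did not move as 1 group. Loxl1, the family member that acts on elastic fibres, read 9.66 and 10.58 in DKO livers, against 8.09 and 8.43 in control livers. The groups were well separated, a 3.64-fold difference that did not pass after adjustment (log2 change 1.86, SE 0.42, adjusted p = 0.067). Without DKO 1 the change was 2.32 and passed (adjusted p = 0.013), and without Control 2 it was 2.03 (adjusted p = 0.17). Loxl2, an oxidase of fibrillar collagens and basement membranes, read 6.39 and 7.44 in DKO livers, against 5.57 and 5.62 in control livers, where it was detected on 1 of 2 arrays (log2 change 1.31, SE 0.43, adjusted p = 0.19).

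Lox, the founding member of the family, ran the other way. It read 7.26 and 7.33 in DKO livers, against 8.51 and 7.86 in control livers. The groups did not overlap, but the control arrays stood 0.65 apart (log2 change -0.88, SE 0.37, adjusted p = 0.32). Fbln2, a glycoprotein of elastic fibres and vessel walls, read 6.69 and 6.56 in DKO livers, against 7.22 and 7.06 in control livers (log2 change -0.52, SE 0.33, adjusted p = 0.56). A second Fbln2 probe, detected on 1 array of each group, gave -0.04 (SE 0.34, adjusted p = 0.99) with overlapping groups. Mfap5, a microfibril glycoprotein, was detected on no array, and Fbn1 had no annotated probe here.

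Of the collagens, 0 of 16 tested genes passed the adjusted threshold in limma and 0 had an unadjusted p under 0.05. In 8 of the 16 both DKO arrays lay below both controls, and in 1 both lay above, against 22.8% and 22.7% of all tested genes. The fibrillar class, whose chains build the fibrils of interstitial matrix, had 9 tested genes of 11. Of these 7 were negative and 5 had non-overlapping groups, all with DKO below, and the median log2 change was -0.38 (range -0.61 to 0.08).

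Col1a1, which encodes the major chain of type I collagen, read 7.54 and 6.16 in DKO livers, against 7.33 and 6.53 in control livers. The arrays of each group differed far more than the groups did (log2 change -0.09, SE 0.53, 95% interval -1.34 to 1.17). Its sign turned without Control 1 (0.32) and without DKO 2 (0.60). Col1a2, the partner chain, read 9.30 and 9.28 in DKO livers, against 9.57 and 9.83 in control livers (log2 change -0.41, SE 0.33, adjusted p = 0.66). Col3a1, the chain of type III collagen, read 10.53 and 10.33 in DKO livers, against 11.26 and 10.81 in control livers (log2 change -0.61, SE 0.35, 95% interval -1.44 to 0.22, adjusted p = 0.51). For Col1a2 and Col3a1 both DKO arrays were lower than both controls.

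Col5a1, a chain of the type V collagen that regulates fibril diameter, read 10.96 and 11.03 in DKO livers, against 11.66 and 11.14 in control livers (log2 change -0.41, SE 0.35). Col5a2 and Col24a1 also had DKO below control on every array, with changes of -0.38 (SE 0.35) and -0.61 (SE 0.34). At a second Col24a1 probe the groups overlapped (log2 change -0.44, SE 0.45). The remaining fibrillar genes, Col2a1, Col11a1 and Col27a1, had changes of -0.06 to 0.08 with overlapping groups.

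**Figure D3:**
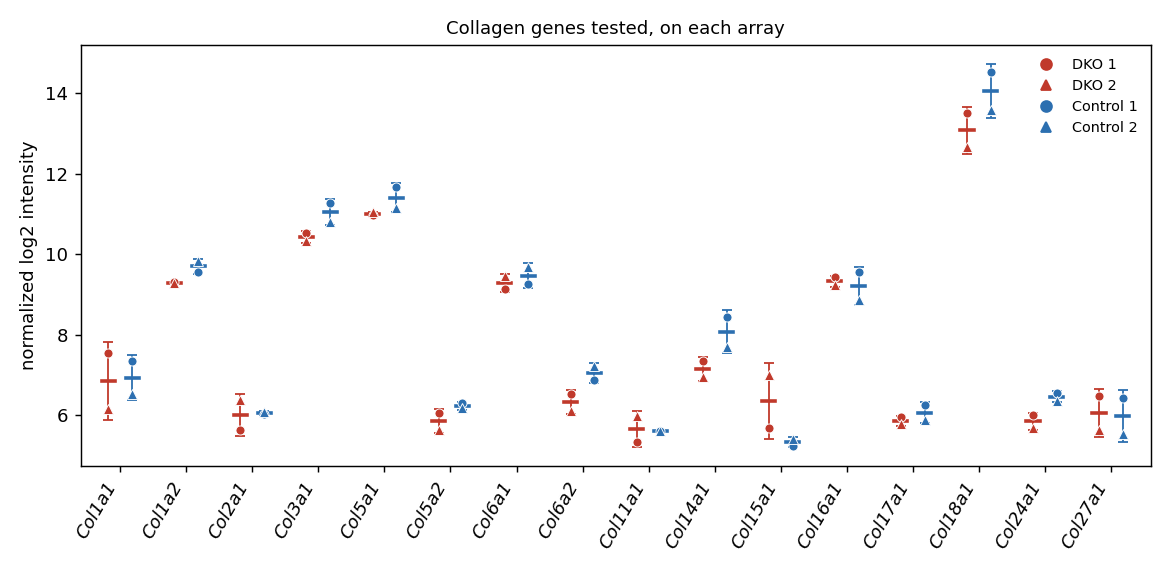
Normalized log2 intensity (vertical axis) of the 16 tested collagen genes on each array, DKO in red left of control in blue. Circles are replicate 1, triangles replicate 2, horizontal bars the group means and whiskers the SD (n = 2). For Col1a2, Col3a1, Col5a1, Col5a2, Col6a2, Col14a1, Col18a1 and Col24a1 both DKO arrays lie below both controls, and for Col15a1 both lie above.

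The largest collagen differences in size were outside the fibrillar class. Col18a1, whose protein sits in vascular and epithelial basement membranes and releases endostatin, read 13.49 and 12.66 in DKO livers, against 14.53 and 13.57 in control livers (log2 change -0.98, SE 0.47, adjusted p = 0.40). DKO 1 and Control 2 were only 0.08 apart. A second Col18a1 probe read 8.70 and 9.0 in DKO livers, against 9.71 and 9.96 in control livers (log2 change -0.99, SE 0.34, adjusted p = 0.23). The gap between groups was wide at that probe, and the 2 probes had the same size of change.

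Col15a1, the other multiplexin and a protein of vessel basement membranes, was the collagen with DKO above control. It read 5.68 and 7.01 in DKO livers, against 5.24 and 5.42 in control livers, where it was detected on neither array. Col15a1 met the detection filter through the DKO arrays alone. It was thus at least 1.67-fold higher in DKO livers (the DKO mean against the higher of the control reading and the lowest detected value on each array), with an adjusted p of 0.40, and the difference came mainly from DKO 2. Without DKO 2 the change was 0.37, and without DKO 1 it was 1.67.

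Col14a1, a collagen that binds to the surface of fibrils, read 7.35 and 6.94 in DKO livers, against 8.45 and 7.70 in control livers (log2 change -0.93, SE 0.40, adjusted p = 0.33). Col16a1, of the same class, read 9.42 and 9.22 in DKO livers, against 9.55 and 8.87 in control livers, with overlap (log2 change 0.11, SE 0.38). Of the microfibril-forming collagen VI chains, Col6a2 read 6.53 and 6.11 in DKO livers, against 6.88 and 7.23 in control livers (log2 change -0.73, SE 0.36, adjusted p = 0.41). Col6a1 read 9.13 and 9.45 in DKO livers, against 9.25 and 9.68 in control livers (log2 change -0.17, SE 0.36). Col17a1, a transmembrane collagen of epithelial hemidesmosomes, had a change of -0.21 (SE 0.35) with overlap.

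The other collagens of the rule gave no test. Col5a3, Col6a6, Col7a1, Col8a2, Col9a1, Col9a2, Col9a3, Col10a1, Col13a1, Col19a1, Col23a1, Col26a1 and Col28a1 were detected on no array, and Col11a2 and Col25a1 on 1. Many of these are known from cartilage, skin or the nervous system. Col6a3, Col6a4, Col6a5, Col8a1, Col12a1, Col20a1 and Col22a1 had no annotated probe here. Of the 9 members with several tested probes, 9 had the same sign at every probe, though the size of the change and the overlap of the groups differed between some probes.

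Among the proteoglycans and matricellular proteins, Sparc stood apart from the rest. Sparc encodes osteonectin, a collagen-binding protein of remodelling tissue. It read 11.36 and 12.59 in DKO livers, against 10.55 and 11.01 in control livers (2.29-fold, log2 change 1.20, SE 0.48, adjusted p = 0.29). Its second probe read 10.91 and 10.97 in DKO livers, against 10.04 and 9.18 in control livers (log2 change 1.33, SE 0.40, adjusted p = 0.16). The groups were separated at both probes, although different arrays stood apart, with DKO 2 high at the first and Control 2 low at the second. At the first probe the change was 0.58 without DKO 2 (adjusted p = 0.94) and 1.82 without DKO 1 (adjusted p = 0.062), with 0.98 and 1.40 when Control 1 or Control 2 was left out.

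The small leucine-rich proteoglycans did not follow it. Dcn, the decorin gene, read 13.32 and 11.39 in DKO livers, against 13.74 and 11.99 in control livers (log2 change -0.51, SE 0.76). Lum, the lumican gene, read 9.57 and 8.17 in DKO livers, against 10.19 and 8.82 in control livers (log2 change -0.63, SE 0.61). In both genes replicate 1 was well above replicate 2 in either group, and the groups overlapped. Without Control 1 the Dcn change was 0.37, and without DKO 2 it was 0.44. Bgn, the biglycan gene, read 12.02 and 11.75 in DKO livers, against 12.12 and 11.38 in control livers (log2 change 0.14, SE 0.39), and was -0.23 without Control 2. Fstl1, a secreted glycoprotein related to SPARC, had a change of -0.22 (SE 0.34), and Postn, the periostin gene of activated fibroblasts, was detected on no array.

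Of 3 tested genes of the contractile and filament class 2 had positive changes (Vim and Acta2), 1 had a negative change (Des) and 0 passed in limma. Vim, the intermediate filament of mesenchymal cells, read 10.84 and 10.96 in DKO livers, against 10.31 and 9.20 in control livers (2.21-fold, log2 change 1.15, SE 0.44, adjusted p = 0.27). The DKO arrays were close together, and most of the spread lay between the controls. Without Control 2 the Vim change was 0.58, and without Control 1 it was 1.71. Acta2, the smooth muscle actin of myofibroblasts, read 12.50 and 11.64 in DKO livers, against 12.01 and 10.54 in control livers (log2 change 0.79, SE 0.55, adjusted p = 0.60). The groups overlapped, 4 probes gave changes of 0.67 to 0.82, and the value was 0.05 without Control 2.

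Des, the filament protein of muscle and quiescent stellate cells, read 7.13 and 7.05 in DKO livers, against 7.57 and 6.78 in control livers (log2 change -0.09, SE 0.39), and was 0.30 without Control 1. Tagln, a calponin-family protein of smooth muscle, was detected on DKO 2 alone, where it read 6.05. It read 5.42 on DKO 1, and 5.49 and 4.73 in control livers. A wider list of smooth muscle and pericyte markers had 11 of 15 genes tested, of which 8 were positive and 0 passed in limma. Of the 11, 3 were higher at an unadjusted p under 0.05, and the median log2 change was 0.52. Kcnj8, among these 3, was detected on neither control array. It met the detection filter through the DKO arrays alone, which bears on these counts and the median. The list's summed intensity was 9304 and 11552 in DKO livers and 5524 and 4273 in control livers. Its largest changes were those of Tpm1, a tropomyosin gene (1.42, SE 0.37, adjusted p = 0.11), and Actg2, enteric smooth muscle actin (1.17, SE 0.47, adjusted p = 0.29). Tpm1 made up most of the list's sum on each array, at 12.60 and 13.11 in DKO livers and 11.65 and 11.23 in control livers. The negative changes were those of Mylk (-0.36, SE 0.41), Cspg4 (-0.06, SE 0.35) and Tpm2 (-0.02, SE 0.35). Over all tested genes 50.4% were positive, and 8.05% were higher at an unadjusted limma p under 0.05. The part of smooth muscle content in the Acta2 value was not tested.

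The receptors and stellate cell genes split by direction. Thy1, a surface glycoprotein of portal fibroblasts and also of lymphoid and neural cells, read 6.41 and 6.93 in DKO livers, against 5.29 and 5.52 in control livers, where it was detected on neither array. On these arrays its DKO mean was at least 2.10-fold the control level, and the 95% interval of the log2 change ran from 0.42 to 2.11 (adjusted p = 0.14). Thy1 met the detection filter through the DKO arrays alone. Reln, a secreted glycoprotein of stellate cells in the liver, read 11.59 and 11.04 in DKO livers, against 12.84 and 12.43 in control livers. The groups were separated by 0.84 between the nearest arrays, a difference that did not pass (log2 change -1.32, SE 0.37, 95% interval -2.20 to -0.45, adjusted p = 0.13). Without Control 2 the Reln change was -1.52 (adjusted p = 0.24).

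Pdgfrb, the receptor that drives stellate cell proliferation, read 5.86 and 6.79 in DKO livers, against 5.34 and 5.93 in control livers (log2 change 0.69, SE 0.44, adjusted p = 0.55). Pdgfra, its relative on portal and capsular fibroblasts, read 7.71 and 6.92 in DKO livers, against 8.41 and 7.68 in control livers (log2 change -0.73, SE 0.43, adjusted p = 0.52). Both pairs of groups overlapped. Lrat, the enzyme that stores vitamin A as retinyl ester and a defining stellate cell gene, was detected on no array. Of 16 further stellate cell markers 5 were tested, 0 passed in limma and 1 was lower at an unadjusted p under 0.05, with Colec10, a collectin, at -1.09 (SE 0.44, adjusted p = 0.30) and Ngfr, the low-affinity neurotrophin receptor, at 0.53 (SE 0.57). Of the 5, 3 were positive and 2 negative, with a median log2 change of 0.195. Their summed intensity was 2989 and 3079 in DKO livers and 5300 and 3784 in control livers. Most of that sum on each array came from Ednrb (-0.54, SE 0.36, adjusted p = 0.58), so that it does not describe the list as a whole.

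Of 12 portal fibroblast markers 7 were tested. Entpd2, an ectonucleotidase, was higher in DKO livers at 10.40 and 10.81, against 7.65 and 8.27 in control livers (6.25-fold, log2 change 2.64, SE 0.38, adjusted p = 0.014). This call was lost without Control 1 (2.34, adjusted p = 0.086) and with no filter on dim probes (adjusted p = 0.085). In the same list Nt5e, another ectonucleotidase, read 8.44 and 8.79 in DKO livers, against 11.30 and 9.92 in control livers (log2 change -2.0, SE 0.50, adjusted p = 0.095). Both genes of extracellular nucleotide breakdown were thus separated between groups, in opposite directions. Gas6 too lay above both controls on both DKO arrays (log2 change 2.08, SE 0.51, adjusted p = 0.089), and Pi16 lay below (-0.99, SE 0.39, adjusted p = 0.29). At an unadjusted p under 0.05 in limma 2 of the 7 were higher and 2 lower, against 8.05% and 8.03% of all tested genes. The median of the 7 was -0.12, and their summed intensity was 2613 and 3638 in DKO livers and 3201 and 2000 in control livers. Of 8 tested mesothelial markers, Pdpn, the podoplanin gene, was higher in DKO livers at 10.97 and 11.22, against 7.85 and 7.75 in control livers (9.82-fold, log2 change 3.30, SE 0.33, adjusted p = 0.0042). With each array left out in turn its change was 3.17 to 3.43. Of the 8, 5 were negative, each with both DKO arrays below both controls, against 22.8% of all tested genes. The largest of these falls was that of Gpm6a (-1.27, SE 0.35, adjusted p = 0.12). The median of the 8 was -0.38, and their summed intensity was 5185 and 4047 in DKO livers and 3291 and 1567 in control livers. Most of the DKO sum came from Pdpn and from Alcam (0.87, SE 0.82, groups overlapping).

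The genes that make, fold and trim procollagen were compared as a separate list, and 0 of 15 tested of 26 passed in limma, although 5 had a higher DKO level at an unadjusted p under 0.05. Of the 15, 11 were positive, and in 8 both DKO arrays lay above both controls, against 50.4% and 22.7% of all tested genes. At an unadjusted p under 0.05 in limma, 8.05% of all tested genes were higher. Plod2, a lysyl hydroxylase needed for the pyridinoline crosslinks of fibrotic collagen, read 7.42 and 9.53 in DKO livers, against 5.41 and 6.34 in control livers (log2 change 2.60, SE 0.69, adjusted p = 0.11). It was detected on 1 of 2 control arrays, and DKO 2 carried most of the difference. Without DKO 2 it was 1.56, and without DKO 1 it was 3.67 and passed (adjusted p = 0.00044).

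Pcolce, which speeds the removal of the procollagen tail, read 8.28 and 9.03 in DKO livers, against 6.41 and 7.15 in control livers (3.67-fold, log2 change 1.88, SE 0.43, adjusted p = 0.074), and passed without DKO 1 (2.28, adjusted p = 0.018). It did not pass without DKO 2 (1.5, adjusted p = 0.26), Control 1 (1.5, adjusted p = 0.30) or Control 2 (2.24, adjusted p = 0.12). Serpinh1, the collagen chaperone HSP47, read 8.14 and 8.40 in DKO livers, against 6.87 and 6.85 in control livers (log2 change 1.41, SE 0.33, adjusted p = 0.083). Colgalt1, a collagen galactosyltransferase, read 11.98 and 11.93 in DKO livers, against 10.60 and 10.65 in control livers (log2 change 1.33, SE 0.33, adjusted p = 0.092). Plod3, a lysyl hydroxylase that also glycosylates collagen, had a change of 1.09 (SE 0.33, adjusted p = 0.17). At the other end of the list Bmp1, the procollagen C-proteinase, had a change of -0.70 (SE 0.48) with overlapping groups. The median log2 change of these 15 genes was 0.29, beside the -0.29 of the 16 collagen genes.

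**Figure D4:**
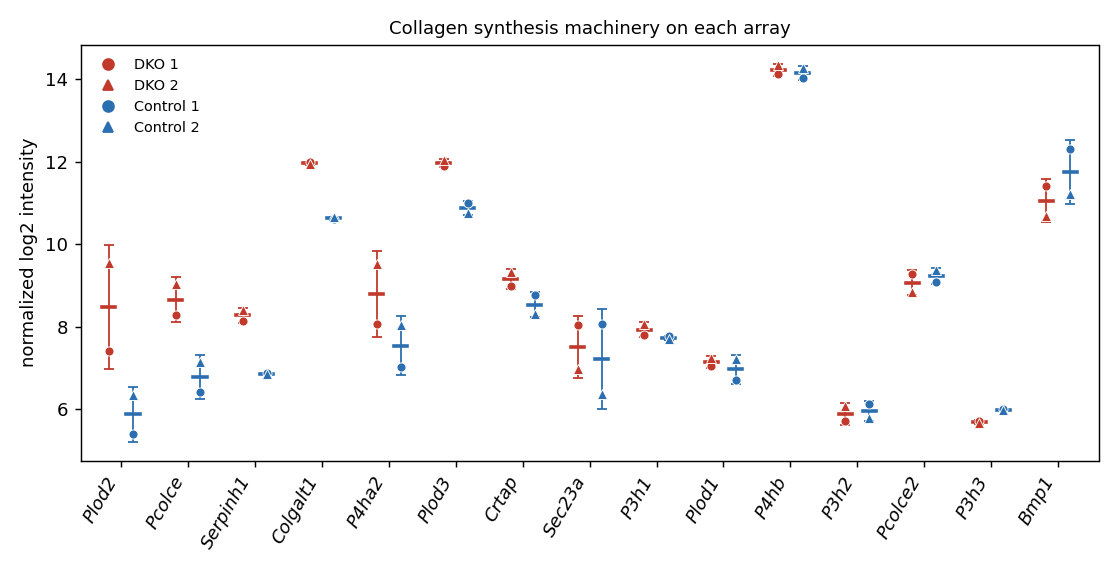
Normalized log2 intensity (vertical axis) of the 15 tested genes of collagen synthesis on each array, ordered by log2 change from left to right, DKO in red left of control in blue. Circles are replicate 1, triangles replicate 2, horizontal bars the group means and whiskers the SD (n = 2). Plod2, Pcolce, Serpinh1 and Colgalt1 show separated groups at the left, and Bmp1 lies lower in DKO livers at the right.

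Among 25 matrix proteases and related genes 13 were tested and 1 passed. Mmp12, macrophage elastase, read 6.54 and 7.87 in DKO livers, against 4.67 and 4.84 in control livers, where it was detected on neither array. Mmp12 met the detection filter through the DKO arrays alone. It was at least 3.04-fold higher in DKO livers, with an adjusted p of 0.043 that was lost without Control 1 (2.29, adjusted p = 0.21), without Control 2 (2.59, adjusted p = 0.15) and without DKO 2 (1.83, adjusted p = 0.091). It was also lost with no background correction (0.90, adjusted p = 0.22), with an offset of 50 (1.60, adjusted p = 0.11), on the authors' normalized values (0.94, adjusted p = 0.21) and with no filter (adjusted p = 0.19). The 8 tested macrophage markers had a median log2 change of 0.15, and 0 of them passed, also at an unadjusted p under 0.05. Mmp9, gelatinase B, read 9.0 and 8.69 in DKO livers, against 9.76 and 10.11 in control livers (log2 change -1.09, SE 0.35, adjusted p = 0.19). Mmp2, gelatinase A, and Mmp14, its membrane-bound activator, had changes of -0.64 (SE 0.34) and 0.53 (SE 0.51). The list's median was -0.01.

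In a list of 40 other elastic fibre and matrix glycoproteins, 26 were tested, 2 were higher and 0 were lower in limma (2 lower at an unadjusted p under 0.05), with a median of -0.21. Spon1, the F-spondin gene, read 8.37 and 8.74 in DKO livers, against 5.62 and 5.63 in control livers, where it was detected on 1 of 2 arrays (7.63-fold, log2 change 2.93, SE 0.34, adjusted p = 0.0069). Efemp1, the fibulin-3 gene, read 7.84 and 8.34 in DKO livers, against 5.48 and 4.98 in control livers, where it was detected on neither (at least 5.61-fold, adjusted p = 0.010). Efemp1 met the detection filter through the DKO arrays alone. With each array left out in turn the Spon1 change was 2.76 to 3.14, and Efemp1 missed the threshold without Control 2 (2.63, adjusted p = 0.054). The Spon1 call was lost with no background correction (1.34, adjusted p = 0.055), on the authors' normalized values (1.39, adjusted p = 0.050) and with no filter (adjusted p = 0.051). The Efemp1 call was lost in the same settings (1.15 and adjusted p = 0.078, 1.20 and adjusted p = 0.073, and adjusted p = 0.072). Eln, the elastin gene, read 7.60 and 8.21 in DKO livers, against 8.47 and 8.61 in control livers (log2 change -0.63, SE 0.37). Prelp and Ogn, small proteoglycans like lumican, had changes of -0.94 (SE 0.33, adjusted p = 0.24) and -1.16 (SE 0.39, adjusted p = 0.22).

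Some markers of the liver epithelium differed between the groups. Of 8 tested biliary epithelial markers 5 were higher in DKO livers (Cldn4, Krt7, Krt8, Krt18 and Krt19), and the summed intensity of the 8 was 36968 and 75048 in DKO livers, against 5739 and 9734 in control livers. Krt19 was detected on neither control array and met the detection filter through the DKO arrays alone. The other 3 did not pass, with changes of 1.86 for Cldn7 (SE 0.42, adjusted p = 0.072), 0.84 for Sox9 (SE 0.37, adjusted p = 0.35) and -0.95 for Cd24a (SE 0.35, adjusted p = 0.25), which read below the controls on both DKO arrays. Of 11 tested hepatocyte markers 2 were lower (Cyp2e1 and Cyp7a1, each detected on 1 of 2 DKO arrays). The other 9 did not pass, among them Cps1 (-1.30, SE 0.54), Alb (-0.89, SE 0.43), Hnf4a (-0.83, SE 0.48), Apoa1 (-0.08) and Ttr (0.03). The Alb probe read only 8.86 and 8.18 in DKO livers and 9.82 and 9.01 in control livers. Ttr read 15.71 and 15.69 in DKO livers and 15.71 and 15.64 in control livers. Of the 11, 10 were negative, with a median log2 change of -0.75. In 7 both DKO arrays lay below both controls, against 22.8% of all tested genes. The sum of the 11 was 260284 and 236478 in DKO livers, against 319037 and 291381 in control livers. Most of the biliary sum in DKO livers came from Krt8 and Krt18. DKO 2, which had the higher biliary sum of the DKO arrays, also read above DKO 1 for Timp1, Timp3, Loxl1, Loxl2, Sparc, Plod2 and Pcolce. Acta2, with a positive change too, read lower on DKO 2 (11.64) than on DKO 1 (12.50). The second Sparc probe hardly differed between DKO 1 and DKO 2 (10.91 and 10.97). The part of epithelial content in the values of the matrix genes was not tested.

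Differences between the arrays of a group were often large beside the group differences, in members as over all tested genes. In 20 of 35 tested members (57.1%) the log2 change was smaller than the larger difference between arrays of a group, against 66.1% of all tested genes. In 8 of them (Col1a1, Col6a1, Col16a1, Col27a1, Acta2, Bgn, Dcn and Lum) it was smaller than both. That is 22.9% of the tested members, against 37.0% of all tested genes. The sign of replicate 1 minus replicate 2 was the same in DKO and control for 30 of the 35 members (85.7%), against 67.2% of all tested genes. Dcn differed by 1.93 between the DKO arrays and by 1.75 between the controls, Lum by 1.40 and 1.38, and Timp1 by -1.0 and -1.14. The labels do not say that a replicate number marks a shared litter or batch.

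**Figure D5:**
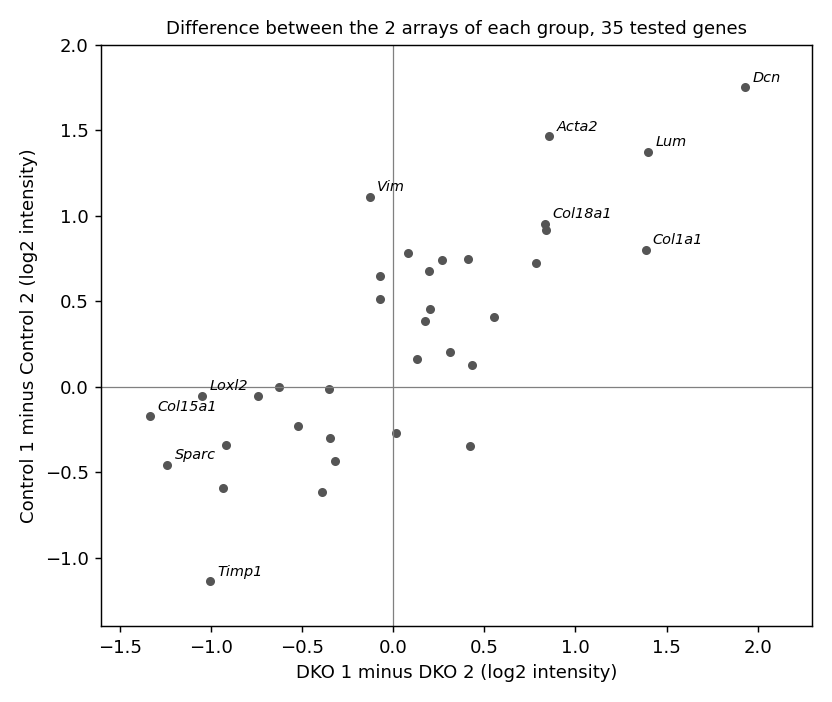
Log2 intensity of DKO 1 minus DKO 2 (horizontal axis) against Control 1 minus Control 2 (vertical axis) for the 35 tested members, 1 point per gene. Genes with a difference above 0.95 in size on either axis are named, and 30 of the 35 points lie at the lower left or upper right, with Dcn at the far upper right and Timp1 at the bottom.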

How the data were processed

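Biotin-labelled, amplified RNA of newborn mouse livers was hybridised to MouseRef-8 v2.0 arrays, 4 samples in all. Groups and replicate numbers came from the sample titles. Another label gives replicate 1 for Control 1 and Control 2 alike, and replicate 2 for DKO 1 and DKO 2, so the numbers behind the block and the paired t-test are uncertain. The authors deposited linear probe intensity without normalization across arrays, the detection p-value of every probe, and a second table of normalized intensity, whose 4 columns held nearly the same distribution (sorted values within 3.92 units of their mean). The scanner software and the normalization of that table were not given in the sources used here. In the methods the study states a log2 transformation and, for statistics in general, a paired two-tailed t-test. No column lay outside the series' samples.

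Intensities were background corrected in limma 3.58.1 (R 4.3.3) by normexp with negative-control levels inferred from detection p-values and an offset of 16, quantile normalized and log2 transformed. The offset pulls changes of dim probes toward 0. Probes detected on at least 2 of 4 arrays (13654 of 25697) were fitted with eBayes, two-sided, without a block, and adjusted by Benjamini-Hochberg over all of them. A gene was read at its tested probe of highest mean log2 intensity. For a probe undetected on both arrays of a group, a bound against the lowest detected value replaced the fold. The bound holds for the ratio of the means on these arrays and takes no account of their spread. Such a probe met the filter through the other group alone, which bears on its p-value and on counts that include it. Of the genes named here, Thy1, Col15a1, Mmp12, Efemp1, Krt19 and Kcnj8 entered this way, through the DKO arrays. The platform annotation named 23978 probes. The fit was tested on simulated data.

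Members and gene lists were chosen with earlier results of these data known. Members were named if they passed the threshold, had an unadjusted p under 0.05, were among the 3 members of highest mean intensity in their class, or were Col1a1, Col1a2, Col3a1, Timp1 to Timp3, Acta2, Tagln, Vim, Des, Pdgfra, Pdgfrb, Thy1, Reln or Lrat. From other lists, genes past the threshold were named, or the largest changes where none passed. Further genes (such as Col24a1, Fstl1, Mmp9, Eln and Nt5e) were named for their role after their values were seen. Promoters came from RefSeq (GRCm38.p6). Probe and protein sequences were not used here.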

Additional observations from a re-analysis of the deposited data

How the results depend on the processing

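Of 36 gene changes recomputed (1 of them at the second Timp1 probe), 30 kept their sign in each alternative that gave a value, out of 17 (9 of the 36 lacked 1 or 2, where a filter removed the probe or probes were averaged). The alternatives were other background corrections, normalizations, filters and variance models, the authors' values, a replicate block, the mean of a gene's probes, the methods' t-test and each array left out, where the lone array of a group was assumed to vary like the other group. The other 6 turned only when an array was left out. Over the 4 arrays left out in turn, Col1a1 ran from -0.78 to 0.60 (positive without Control 1 or DKO 2), Dcn from -1.47 to 0.44 (likewise), Des from -0.47 to 0.30 (positive without Control 1), Bgn from -0.23 to 0.52 (negative without Control 2 or DKO 1), Col16a1 from -0.23 to 0.45 and Col6a1 from -0.39 to 0.045 (both turned without Control 2). The collagen median stayed negative in every alternative (12 of 16 negative in the fit reported), while the median of all members was 0.05 without Control 1, against -0.09 with all arrays.

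The counts were less stable. Against 166 genes higher and 160 lower, the test gave 57 and 71 with no background correction, 60 and 73 on the authors' normalized values, 15 and 26 with no filter, and 91 and 89 for probes detected on all 4 arrays. In these 4 settings, and with no or cyclic loess normalization, 0 members were higher in limma, where Timp3 had an adjusted p of 0.050 to 0.097. Of the matrix lists 1 gene (Colgalt1) was higher with no background correction and on the authors' values, and 0 with no filter or when detected on all 4 arrays, against 3 in the fit reported. Leaving out each array gave 63 to 283 higher and 53 to 245 lower genes, 0 to 3 members higher (3 without DKO 1) and 1 to 6 matrix-list genes higher. With the mean of a gene's probes 2 members were higher, Timp1 and Timp3. The causes were not tested.

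With the replicate block 680 genes were higher and 672 lower, 7 members were higher (Timp1, Timp3, Loxl1, Loxl2, Sparc, Vim and Thy1) and 2 lower (Col18a1 and Reln), and 9 matrix-list genes were higher and 2 lower. The correlation of replicate 1 minus replicate 2 between the groups was 0.54 over all tested probes and 0.80 over the 35 tested members, but with only 2 pairs and no label for it, the numbers were not taken to pair the livers. The methods' t-test on same-numbered arrays gave, unadjusted, 407 genes higher and 555 lower, 2 members higher and 5 lower, and 4 matrix-list genes lower. After Benjamini-Hochberg it gave 1 higher and 1 lower, 0 members and 0 matrix-list genes. The number of arrays, 2 per group, limits every test: the smallest change called among all genes was 1.68 on the log2 scale.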

Other observations

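Lists of other cell types in the same livers had few calls. Of 12 endothelial markers 0 passed in limma, 8 were negative and 1 was lower at an unadjusted p under 0.05 (median log2 change -0.45). Of 10 granulocyte markers 10 were negative, 0 passed and 1 was lower at an unadjusted p under 0.05 (median -0.24), and of 8 erythroid markers 8 were negative and 0 passed (median -1.03, with 5 at an unadjusted p under 0.05). The medians of 7 megakaryocyte and platelet markers and 6 B cell markers were -0.73 and -0.61, with 0 past the threshold in either list (3 and 1 lower at an unadjusted p under 0.05). Over all tested genes 50.4% were positive, and 8.03% were lower at an unadjusted limma p under 0.05.

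Matches to the TEAD core GGAATG outside the TIMP genes lay in the promoters of Acta2 (from -146 to -141), Col3a1 (from -168 to -163), Col6a2 (from -115 to -110) and 1 of the Col18a1 promoters (2 matches). Of these genes Acta2 had a log2 change of 0.79, and Col3a1, Col6a2 and Col18a1 had changes of -0.61, -0.73 and -0.98. The AP-1 site lay in the promoter of Col6a1 alone among the tested members with a sequence.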
